A study of Mus musculus with 22 samples.

Results

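Sidekick, Dscam and contactin genes encode immunoglobulin-superfamily adhesion proteins of neurons, and 9 of them were followed across mouse cells and brain regions with and without *Phf8*. They were the Sidekick genes *Sdk1* and *Sdk2*, the Dscam genes *Dscam* and *Dscaml1*, and the contactins *Cntn1*, *Cntn3*, *Cntn4*, *Cntn5* and *Cntn6*, taken by name from the 39179 gene identifiers counted. The list was built around *Sdk1*, which was chosen by its higher counts in KO than in WT prefrontal cortex, so that difference is given below as a description without a test. RNA-seq covered 22 samples, with 2 WT and 2 KO embryonic stem cell (ESC) samples, and 3 WT and 3 KO samples each of neural progenitor cells (NPCs), of prefrontal cortex (PFC) and of ventral striatum (STR). All were on a B6x129SvJ background. The brain tissue came from mice aged 2 months, the NPCs from E16.5 embryos and were grown as a monolayer, and the ESCs from blastocyst outgrowths kept on gelatin or feeders. *Phf8*, on the X chromosome, encodes a histone demethylase that binds chromatin at active promoters. The KO allele lacks exons 7 and 8 in every cell, and per the study's methods it arose by Cre recombination in targeted male ESC clones. The labels do not say which replicates came from separate animals or cultures, so the p-values below measure only the spread between these samples. Because tissue was sequenced in bulk, fewer cells of a type and less RNA per cell cannot be told apart.

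Sidekicks and Dscams are transmembrane proteins with arrays of immunoglobulin and fibronectin domains. They bind their own kind on a facing cell, and in the retina, where they have been studied most, they help the processes of particular neurons to meet in particular layers. Contactins have a similar array but are held in the membrane by a lipid anchor. They act with partners such as the Caspr proteins (*Cntnap* genes), receptor tyrosine phosphatases and L1-family proteins in axon growth, myelinated-fibre organization and synapse formation.

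Because PHF8 acts at promoters, the sequence around RefSeq transcription starts was compared between the members. RefSeq start sites on GRCm38.p6 gave 300-base windows for 8 of the 9 members, all but *Dscaml1*. The *Sdk1* window (chr5:141241284-141241583, plus strand) held 54 CG dinucleotides and was 78.3% G or C, and 0.347% of all 32851 such windows had at least as many CG. The *Sdk2* window (chr11:114066980-114067279, minus strand) held 41 (3.46% of windows), while the median window held 7. The *Cntn6* window (chr6:104492794-104493093, plus strand) held 4 (68.6% of windows) and stands for the CG-poor end of the list. The *Dscam* window held 26, and so did both windows of *Cntn5*. The others ranged from 0 in *Cntn3* to 12 in 1 of the windows of *Cntn4*. The *Cntn3* window (chr6:102464618-102464917), both windows of *Cntn4* and the later windows of *Cntn1* lie well inside the gene spans given below. Their CG counts are therefore those of internal starts, not of the outer 5′ end of the gene. The windows are shown 5′ to 3′ for the 2 Sidekicks and *Cntn6*, with each CG in capitals. The letters alone say nothing of PHF8 binding.
Sdk1: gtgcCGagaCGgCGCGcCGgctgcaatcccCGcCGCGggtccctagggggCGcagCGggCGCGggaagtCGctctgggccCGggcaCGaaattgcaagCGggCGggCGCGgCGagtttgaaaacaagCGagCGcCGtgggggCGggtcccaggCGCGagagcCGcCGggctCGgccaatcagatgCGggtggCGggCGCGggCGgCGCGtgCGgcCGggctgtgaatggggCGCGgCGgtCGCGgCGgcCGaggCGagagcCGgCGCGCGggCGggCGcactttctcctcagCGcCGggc
Sdk2: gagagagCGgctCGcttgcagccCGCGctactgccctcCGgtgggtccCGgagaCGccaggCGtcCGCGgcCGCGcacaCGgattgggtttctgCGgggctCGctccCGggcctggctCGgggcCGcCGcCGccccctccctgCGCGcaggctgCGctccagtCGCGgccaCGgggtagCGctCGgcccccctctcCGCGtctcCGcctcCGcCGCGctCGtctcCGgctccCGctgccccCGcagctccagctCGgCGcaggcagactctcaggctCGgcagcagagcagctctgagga
Cntn6: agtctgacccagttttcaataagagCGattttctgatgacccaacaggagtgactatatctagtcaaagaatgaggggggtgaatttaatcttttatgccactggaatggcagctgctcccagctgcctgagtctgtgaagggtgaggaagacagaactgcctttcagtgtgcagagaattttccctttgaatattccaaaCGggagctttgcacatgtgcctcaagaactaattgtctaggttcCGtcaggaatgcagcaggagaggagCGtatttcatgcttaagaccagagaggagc

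*Sdk1* is a large gene, with exons (11087 bases in all) spread over chr5:141241490-142215586 of GRCm38 on the plus strand. *Sdk2* lies on chr11:113776374-114067046 (minus), *Dscam* on chr16:96590840-97170752 (minus) and *Dscaml1* on chr9:45426628-45753712 (plus). *Cntn1* lies on chr15:92051165-92341967 (plus). *Cntn3*, *Cntn6* and *Cntn4* lie in that order on chromosome 6, at chr6:102162655-102573101 (minus), chr6:104492790-104863406 (plus) and chr6:105677660-106699310 (plus). *Cntn5* lies on chr9:9660891-10904775 (minus). Annotated antisense genes share 3.1% of the exon bases of *Dscam*, 6.4% of those of *Cntn5* and 0.0224% of those of *Dscaml1*, and the counting of the cultured-cell samples did not use strand, so reads there cannot be assigned to either gene with certainty. The strand setting for the brain samples is not given in the sources used here.

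Between 5898286 and 15539811 reads fell on genes in each sample. *Phf8* itself was lower in every KO sample than in every WT sample of the same tissue, with log2 fold changes of -1.37 in PFC, -1.37 in STR, -1.42 in NPCs and -1.79 in ESCs. By edgeR's quasi-likelihood test, adjusted over all genes, this difference passed in PFC (adjusted p = 0.00193) and NPCs (adjusted p = 0.0285). It did not pass in STR (adjusted p = 0.0956) or ESCs. With the edgeR fit blocked on replicate number it passed in both (adjusted p = 0.0327 in STR and 6.22e-13 in ESCs). Counts remained in every KO sample, and the allele keeps the other exons. Markers separated the tissues by their labels. The 5 cortical projection neuron markers summed to 823 to 1057 CPM in PFC and 69.1 to 501 CPM in STR, and the 7 striatal projection neuron markers to 189 to 219 and 1199 to 1604 CPM. The 5 pluripotency markers summed to at least 2374 CPM in ESCs and at most 5.62 CPM in NPCs. A few samples stood apart. STR KO replicate 1 had 185 CPM over 7 hypothalamic markers, against 10.3 to 30.9 CPM in the other STR samples, and the lowest sum of cortical projection markers. Replicate 2 of both ESC genotypes had 3503 and 4262 CPM over 4 fibroblast markers, against 161 and 152 CPM in replicate 1. NPC replicate 2 had 219.1 (WT) and 410.5 CPM (KO) over 6 oligodendrocyte markers, against 1871 to 3117 CPM in the other NPC samples. NPC WT replicate 2 was the lowest WT NPC sample for *Sdk2*, *Dscam*, *Dscaml1*, *Cntn3*, *Cntn5* and *Cntn6* and the highest for *Cntn1* and *Cntn4*.

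The 9 members were unevenly spread over the tissues (CPM are read counts relative to library size, with TMM factors over all 22 samples). *Sdk1* was nearly level in WT NPCs, STR and PFC and close to absent in ESCs. In WT samples 1 to 3 it stood at 12.6, 11.2 and 10.7 CPM in NPCs, 10.4, 12.7 and 10.7 CPM in STR, and 12.3, 10.6 and 9.40 CPM in PFC. The 3 ranges overlap. In ESCs it had 1 and 15 counts in the WT samples (0.102 and 1.30 CPM) and 11 and 12 counts in the KO samples. The single count came from WT replicate 1.

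*Sdk2*, its closest relative in the list, was instead graded from tissue to tissue in WT samples. WT samples had 19.7, 8.81 and 17.9 CPM in NPCs, 43.4, 34.2 and 29.6 CPM in STR, and 80.8, 77.3 and 71.0 CPM in PFC. None of these 3 groups overlap. Taken per exon length (RPKM), *Sdk1* therefore made up 52.2% ± 10.2 (SD, n = 3) of Sidekick RNA in WT NPCs, 30.9% ± 5.06 in WT STR and 16.4% ± 1.03 in WT PFC, a share that needs no scaling between samples. In KO samples *Sdk2* overlapped between NPCs (15.9 to 31.8 CPM) and STR (29.4 to 43.7 CPM), with PFC above both (78.9 to 112.8 CPM). The *Sdk1* shares in KO NPCs (36.35% to 58.13%) and KO STR (34.39% to 42.6%) also overlapped. Between WT PFC and WT STR 39.6% of all genes did not overlap, and that share was not counted for NPCs against STR.

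**Figure D1:**
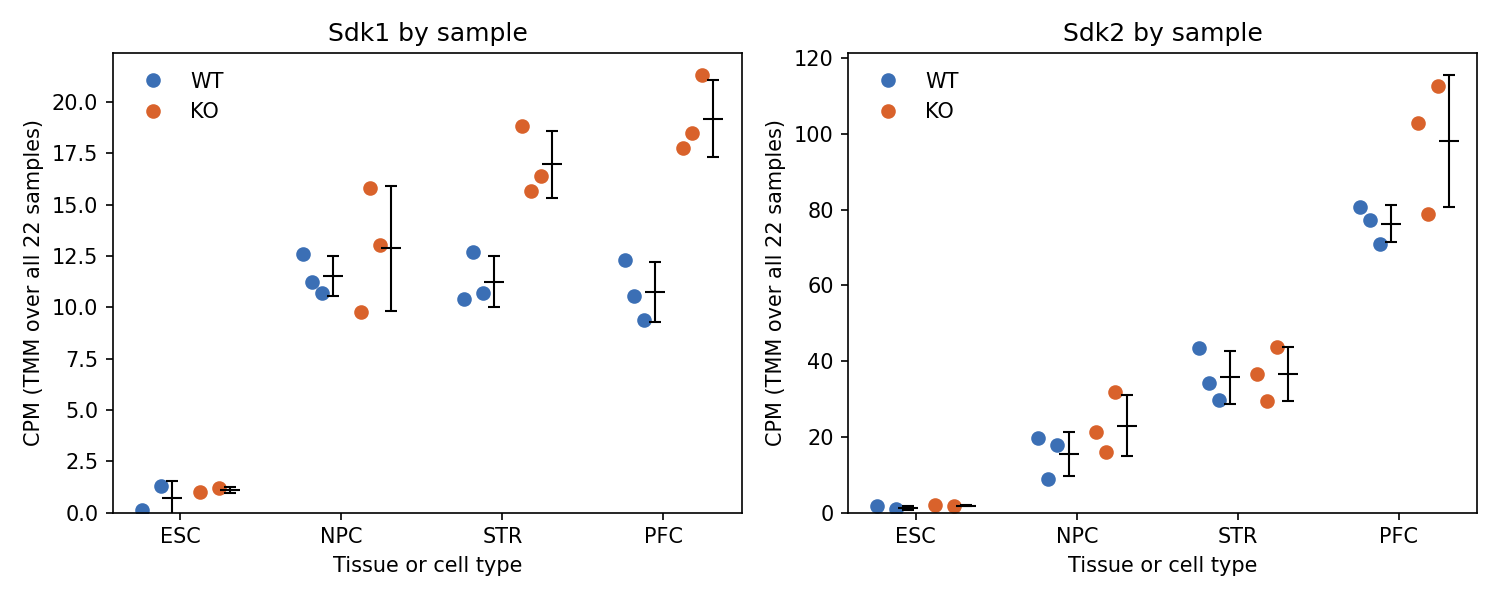
*Sdk1* (left) and *Sdk2* (right) in CPM in each sample of ESCs, NPCs, STR and PFC, WT in blue and KO in orange, with the group mean (bar) and SD (whiskers, cut at 0). The KO samples of STR (15.6 to 18.8 CPM) and PFC (17.8 to 21.3 CPM) lie above all WT samples for *Sdk1*, while *Sdk2* differs mainly between tissues.

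Per exon length, *Cntn1* was the most abundant member in NPCs, STR and PFC (levels below are mean RPKM of WT samples). This contactin has roles at the node of Ranvier region and in oligodendrocyte signalling, and it stood at 41.0 RPKM in NPCs, 30.3 RPKM in STR and 35.1 RPKM in PFC. In PFC it was followed by *Dscam* (10.9 RPKM) and *Cntn4* (10.3 RPKM), whose ranges overlap, then *Dscaml1* (7.20 RPKM) and *Cntn3* (6.98 RPKM), whose ranges also overlap, *Sdk2* (4.94 RPKM), *Cntn6* (3.76 RPKM), *Cntn5* (1.61 RPKM) and *Sdk1* (0.970 RPKM). The ranges of *Cntn5* and *Sdk1* overlap. *Sdk1* was thus at the low end of the list in both brain regions.

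In STR the middle of the order was flatter. *Dscaml1* (6.57 RPKM), *Cntn3* (6.41 RPKM), *Cntn4* (6.13 RPKM), *Dscam* (5.06 RPKM) and *Cntn6* (4.78 RPKM) each overlapped the next, as did *Cntn5* (2.49 RPKM) and *Sdk2* (2.31 RPKM), and *Sdk1* was last at 1.01 RPKM. In NPCs *Dscam* (7.62 RPKM) and *Dscaml1* (3.09 RPKM) followed *Cntn1*. *Sdk1* (1.04 RPKM), *Sdk2* (0.9998 RPKM), *Cntn4* (0.879 RPKM), *Cntn3* (0.464 RPKM) and *Cntn6* (0.277 RPKM) then ran on with overlapping ranges, above *Cntn5* (0.0296 RPKM). *Cntn1* made up 96.1% ± 1.16 (SD, n = 3) of the RNA of the 5 contactins listed in WT NPCs but 60.5% ± 0.910 in WT STR and 60.8% ± 2.16 in WT PFC.

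**Figure D2:**
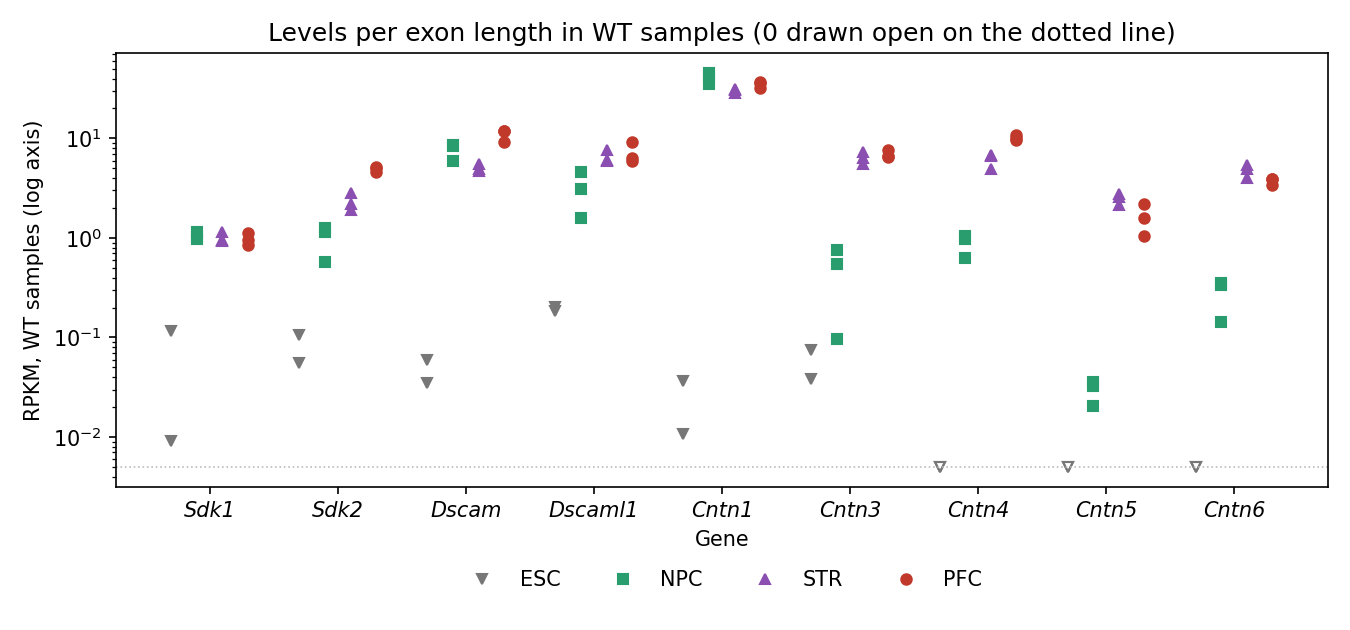
Level per exon length (RPKM, log axis) of each member in every WT sample of ESCs (grey), NPCs (green), STR (purple) and PFC (red). Open symbols on the dotted line are samples with 0 counts: *Cntn4*, *Cntn5* and *Cntn6* had none in ESCs, and *Cntn1* was highest in the other 3 tissues.

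ESCs held little RNA from any member. *Dscaml1* was highest in WT ESCs, at 0.193 RPKM, and *Cntn4*, *Cntn5* and *Cntn6* had 0 counts in all 4 ESC samples. For them a count of 0 allows a level of up to 3 counts in a sample, which is 0.282 CPM on average in WT and 0.283 CPM in KO ESCs. Genes were compared between NPCs and ESCs by the quasi-likelihood test of edgeR, adjusted over all genes after Benjamini and Hochberg, and a gene is said to be called where the adjusted p was under 0.05. In WT samples 8 of the 8 members tested were called higher in NPCs, where 34.6% of all genes were called higher and 71.2% called in either direction. In KO samples 7 of 8 were called higher, where 34% of all genes were, and 71.1% in either direction. *Cntn5*, with 0 to 2 counts per NPC sample, passed the filter in neither. Members close to 0 counts in ESCs passed it through their NPC counts alone, so for them only a higher level in NPCs could be found. Requiring 10 counts in every sample left 2 members called in WT and 3 in KO.

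Ratios of CPM summed over samples show the size (intervals of 95% cover counting error only). *Cntn1* was 1641-fold higher in WT NPCs than in WT ESCs (interval 703.2 to 5056; adjusted p = 4.43e-05) and *Dscam*, a homophilic receptor of developing neurites, 161.5-fold higher (84.96 to 353.7; adjusted p = 7.61e-05), both by edgeR's test. *Dscaml1* was 16.2-fold, *Sdk1* 15.4-fold (9.36 to 27.2; adjusted p = 0.00634) and *Sdk2* 13.03-fold higher. *Cntn4* was at least 26.4-fold and *Cntn6* at least 6.39-fold higher, taking the mean CPM of 3 counts per ESC sample as the floor. *Cntn3* was the weakest, 8.68-fold higher in WT (adjusted p = 0.0384) and 3.26-fold in KO (adjusted p = 0.0624 by edgeR). Its call in WT ended without ESC WT replicate 1 (adjusted p = 0.103) or replicate 2 (adjusted p = 0.159), and without NPC WT replicate 1 or 3 it did not pass the filter. *Sdk1* in WT had log2 fold changes of 3.22 to 6.76 when single samples were left out. The highest was without ESC WT replicate 2, in which the fibroblast markers were high. KO ESC replicates 1 and 2, with 152 and 4262 CPM over those markers, had 11 and 12 *Sdk1* counts. The part of fibroblasts in these counts was not tested.

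Between the 2 brain regions, *Sdk2*, *Dscam* and *Cntn4* were higher in PFC than in STR in both genotypes, and *Sdk1* did not pass the test. *Dscam* had 104, 103 and 80.9 CPM in WT PFC samples and 43.5, 48.7 and 41.3 CPM in WT STR samples, without overlap. *Cntn4*, a contactin of the olfactory and visual systems, had 82.3, 92.1 and 86.5 CPM against 41.5, 58.3 and 56.3 CPM, also without overlap. By edgeR's quasi-likelihood test in WT, the log2 difference was 1.09 (SE 0.114, adjusted p = 5.71e-05) for *Dscam*, 1.07 (SE 0.131, adjusted p = 0.000188) for *Sdk2* and 0.72 (SE 0.12, adjusted p = 0.00138) for *Cntn4*. These 3 of 9 members compare with 13% of all genes called higher in PFC in WT and 24.4% called in either direction. WT groups that did not overlap were found for 5 of 9 members and for 39.6% of all genes.

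The same 3 genes passed in KO samples, with log2 differences of 0.82 (SE 0.181, adjusted p = 0.0111) for *Dscam*, 1.41 (SE 0.162, adjusted p = 0.000417) for *Sdk2* and 1.16 (SE 0.13, adjusted p = 0.000356) for *Cntn4*. *Cntn3* also passed, at 0.35 (SE 0.102, adjusted p = 0.0352), for 4 of 9 members, where 13.8% of all genes were called higher and 27.7% in either direction. The *Cntn3* call held without STR KO replicate 3 and ended without any other of the 6 samples (adjusted p of 0.0833 to 0.106). Without STR KO replicate 1, the sample with hypothalamic markers, *Dscam* stood at 1.09. The *Dscam* call ended without STR KO replicate 3 (adjusted p = 0.0507).

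*Cntn5* and *Cntn6* leaned the other way in WT. *Cntn6*, which acts with CHL1 in some neurons, had 25.9, 35.3 and 32.0 CPM in WT STR and 25.4, 22.1 and 25.7 CPM in WT PFC, all PFC samples below all STR samples. The log2 difference was -0.37 (SE 0.131, adjusted p = 0.0642 by edgeR). *Cntn5*, a contactin of the auditory pathway, differed by -0.63 (SE 0.237, adjusted p = 0.082). Same-numbered PFC and STR samples deviated together. When the edgeR fit was blocked on replicate number both were called, *Cntn5* at -0.65 (adjusted p = 0.00788) and *Cntn6* at -0.37 (adjusted p = 0.0212). With the block 5 of 9 members were called, where 5405 of all 15555 genes were called in either direction, against 24.4% of genes without it. In KO samples *Cntn5* and *Cntn6* stood at -0.12 and -0.21 and neither passed (adjusted p = 0.72 and 0.176 by edgeR, 0.651 and 0.179 with the block). *Sdk1* differed by -0.08 (SE 0.16, adjusted p = 0.784) in WT and 0.15 (SE 0.122, adjusted p = 0.398) in KO.

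**Figure D3:**
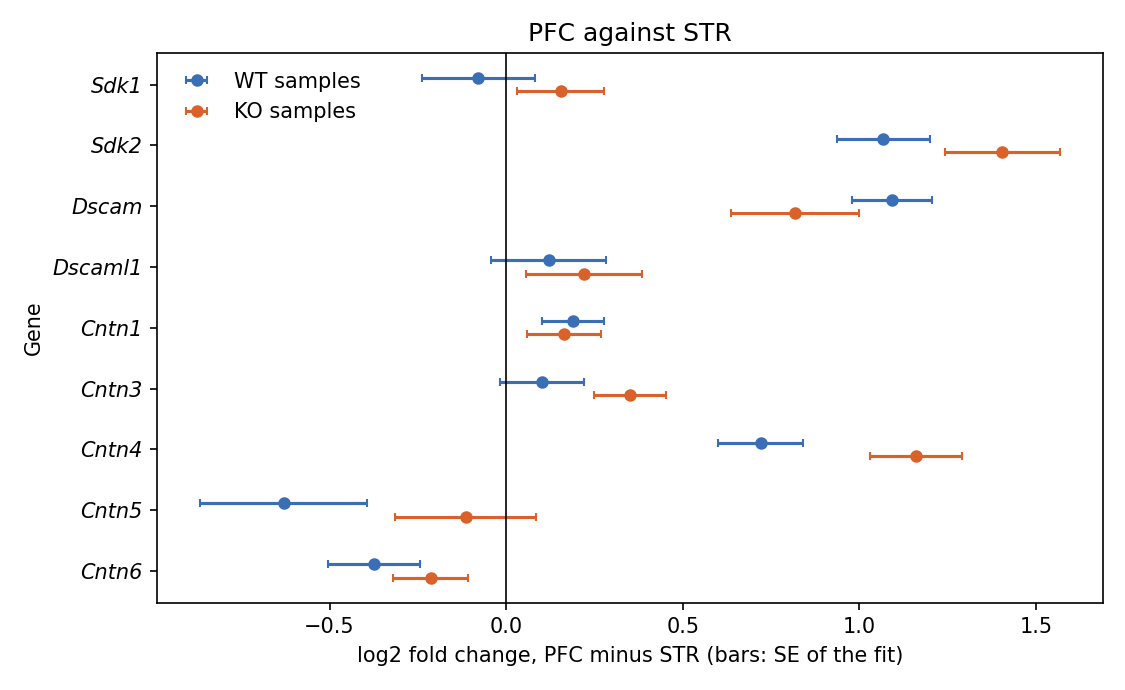
Log2 difference of PFC from STR for each member in WT (blue) and KO (orange) samples, with bars of 1 SE of the edgeR fit. *Sdk2*, *Dscam* and *Cntn4* lie to the right of 0 in both genotypes, from 0.72 to 1.41, and *Sdk1* lies within 0.16 of 0.

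In PFC *Sdk1* was higher without *Phf8*. KO samples 1 to 3 had 17.8, 18.5 and 21.3 CPM and WT samples 12.3, 10.6 and 9.40 CPM, so that the lowest KO sample was above the highest WT sample. The mean was 10.8 ± 1.47 CPM (SD, n = 3) in WT and 19.2 ± 1.87 CPM in KO, a difference of 0.81 on the log2 scale (SE 0.138), or 1.76-fold. Because this is the contrast that placed *Sdk1* in the list, no test is given for it. The estimate stayed between 0.73 and 0.92 on the log2 scale when each sample was left out in turn. Per exon length, *Sdk1* was 15.6% to 17.5% of Sidekick RNA in WT and 19.4% to 24.6% in KO PFC, again without overlap.

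The STR contrast is not the one given above for choosing *Sdk1*, but the list was chosen with earlier results of these data known. Same-numbered STR and PFC samples also deviated together and may share an animal. The STR values are therefore not an independent check. KO samples had 18.8, 15.6 and 16.4 CPM of *Sdk1* and WT samples 10.4, 12.7 and 10.7 CPM, and here too every KO sample was above every WT sample. Of all 15476 genes tested in STR, 13.1% had groups that did not overlap. The difference was 0.60 on the log2 scale (SE 0.147), or 1.52-fold. It ranked 83rd of all genes by p (unadjusted p = 0.00225 by edgeR's quasi-likelihood test) but did not pass after adjustment over all genes (adjusted p = 0.397). No gene was called in STR by this fit (0% of genes tested, with 1346 at an unadjusted p under 0.05), and DESeq2 called 53, *Sdk1* not among them (adjusted p = 0.24). Even *Phf8*, which ranked 1st by p in STR, was not called by this fit (log2 fold change -1.37, adjusted p = 0.0956). The lack of a call in STR therefore does not show that a member was unchanged. For *Sdk1*, leaving out single samples gave 0.51 to 0.69, the lowest without STR KO replicate 1. In the same comparison the summed hypothalamic markers (10.3 to 14.4 CPM in WT, 22.1 to 185 CPM in KO), 5 astrocyte markers (744 to 774 and 791 to 865 CPM), 4 choroid plexus markers (64.5 to 72.8 and 73.5 to 87.7 CPM), 2 blood markers (26.4 to 29.4 and 19.9 to 25.6 CPM) and 5 pluripotency markers (1.32 to 1.86 and 1.89 to 4.90 CPM) also did not overlap, with no marker of these lists called, and their part in the *Sdk1* difference was not tested.

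No difference in *Sdk1* was detected in NPCs or ESCs. In NPCs KO samples had 9.75, 15.8 and 13.02 CPM and WT samples 12.6, 11.2 and 10.7 CPM, and the groups overlap (log2 fold change 0.16 by the fit, SE 0.202, adjusted p = 1 by edgeR). In ESCs the log2 fold change was 0.58 with an SE of 1.064 (adjusted p = 1), too imprecise at 1 to 15 counts per sample to show a difference of the size seen in PFC. Blocking on the replicate number gave 0.64 in ESCs (SE 0.517, adjusted p = 0.607 by edgeR). The KO effect on *Sdk1* was 0.24 larger in PFC than in STR on the log2 scale (SE 0.197), given as a description because it uses the PFC contrast.

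The other Sidekick, *Sdk2*, did not pass in any tissue. In PFC it had 103, 78.9 and 113 CPM in KO and 80.8, 77.3 and 71.0 CPM in WT. KO replicate 2 fell among the WT samples. The log2 fold change was 0.35 (SE 0.115, adjusted p = 0.238 by edgeR) in PFC, 0.03 (SE 0.168, adjusted p = 0.982) in STR, 0.58 (SE 0.363, adjusted p = 1) in NPCs and 0.56 (SE 0.449, adjusted p = 1) in ESCs. In NPCs, whose numbered samples deviated together, blocking on the replicate number gave 0.59 (SE 0.168, adjusted p = 0.377).

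Among the Dscams the largest KO difference was *Dscam* in STR, where KO samples had 80.9, 45.7 and 54.8 CPM and WT samples 43.5, 48.7 and 41.3 CPM. The groups overlap, and the high value belongs to STR KO replicate 1. The log2 fold change was 0.45 (SE 0.193, adjusted p = 0.57 by edgeR) and 0.17 without that sample (adjusted p = 0.999). Its hypothalamic marker sum of 185 CPM moved with this value, and the part of those markers in it was not tested. In PFC *Dscam* differed by 0.16 (adjusted p = 0.637) and *Dscaml1*, a relative with roles in retinal and hippocampal wiring, by 0.20 (adjusted p = 0.786).

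No contactin passed the test between genotypes in any tissue. In PFC *Cntn1*, *Cntn3* and *Cntn4* had every KO sample above every WT sample, by small amounts. *Cntn3* had 53.3, 54.4 and 53.9 CPM in KO and 52.1, 44.9 and 43.9 CPM in WT. *Cntn4* had 95.8, 100.3 and 101.4 CPM in KO and 82.3, 92.1 and 86.5 CPM in WT. *Cntn1* had 376, 350 and 371 CPM in KO and 343, 302 and 349 CPM in WT. By edgeR the log2 fold changes were 0.18 (adjusted p = 0.467), 0.18 (adjusted p = 0.381) and 0.13 (adjusted p = 0.622). Larger differences with larger errors were those of *Cntn5* in PFC, at 0.46 (SE 0.22, adjusted p = 0.471), and *Cntn6* in NPCs, at 0.56 (SE 0.436, adjusted p = 1). With the replicate block *Cntn6* in NPCs stood at 0.58 with a smaller error (SE 0.234, adjusted p = 0.464 by edgeR).

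Counting *Sdk1*, 4 of 9 members had PFC groups that did not overlap, where 17.1% of all genes tested did. All 9 had a positive log2 fold change in PFC, with a median of 0.19 without *Sdk1* against -0.02 over all genes. Of the 8 members other than *Sdk1*, 0 were called by edgeR or DESeq2, where edgeR called 0.638% of all genes and 0.163% higher, and 2 of the 8 had an unadjusted p under 0.05, where 11.2% of all genes did. The list was chosen around that contrast, so nothing is read from these counts. The 6 oligodendrocyte markers moved with genotype in the same samples, at 1689 to 2243 CPM summed in WT and 1384 to 1477 CPM in KO (3 of 6 called lower, none at 0 counts), as did 5 astrocyte markers at 835 to 891 and 758 to 808 CPM (1 called lower). Of the other marker lists, 7 hypothalamic markers (2.09 to 6.58 CPM in WT and 6.74 to 7.77 CPM in KO) and 2 blood markers (26.2 to 37.0 and 22.5 to 26.1 CPM) also did not overlap, with none called. The 5 neuron markers overlapped, at 1918 to 2529 and 2182 to 2358 CPM. The part of these cell types in the members' differences was not tested.

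*Cntn1* was lower in the KO NPC samples. WT samples had 396, 432 and 334 CPM and KO samples 318, 243 and 299 CPM, with all KO samples below all WT samples. The log2 fold change was -0.43 (SE 0.143), with an unadjusted p of 0.0213 and an adjusted p of 1 by edgeR's quasi-likelihood test (0.447 with the replicate block), so it did not pass. Non-overlapping groups were found in 8.27% of all genes in NPCs, and 1 of the 8 members tested had them. No member was called in NPCs, where 0.00697% of genes were called, nor in ESCs, where 0% were (171 genes at an unadjusted p under 0.05, and 3 by DESeq2) and 3 members passed the filter. Even *Phf8*, which ranked 1st by p in ESCs, was not called there without a block (log2 fold change -1.79, unadjusted p = 0.00106 by edgeR). The lack of a call in ESCs therefore does not show that a member was unchanged. Blocked on the replicate number, *Phf8* was called in ESCs (-1.80, adjusted p = 6.22e-13 by edgeR) and 0 members were. The labels do not say that these numbers pair ESC samples. Without a block, 2 of 9 members had an unadjusted p under 0.05 in STR (8.7% of all genes), 1 of 8 in NPCs (3.03%) and 0 of 3 in ESCs (1.13%), and DESeq2 called no member in these 3 tissues. With the block in NPCs, *Sdk2*, *Cntn1* and *Cntn6* were under it (unadjusted p = 0.0119, 0.0359 and 0.0458 by edgeR) and 0 members were called. The share of all genes at that p was not counted for the block. In STR, *Cntn4* stood at -0.24 (SE 0.172, adjusted p = 0.759) and the other contactins within 0.18 of 0. The difference between the KO effects in PFC and STR was 0.45 for *Cntn4* (SE 0.189, adjusted p = 0.735 for the interaction), and no other member had a smaller adjusted p for it (0.00624% of genes were called in that test). Without STR KO replicate 1, the sample with hypothalamic markers, *Cntn4* stood at -0.095 in STR and the interaction at 0.27.

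**Figure D4:**
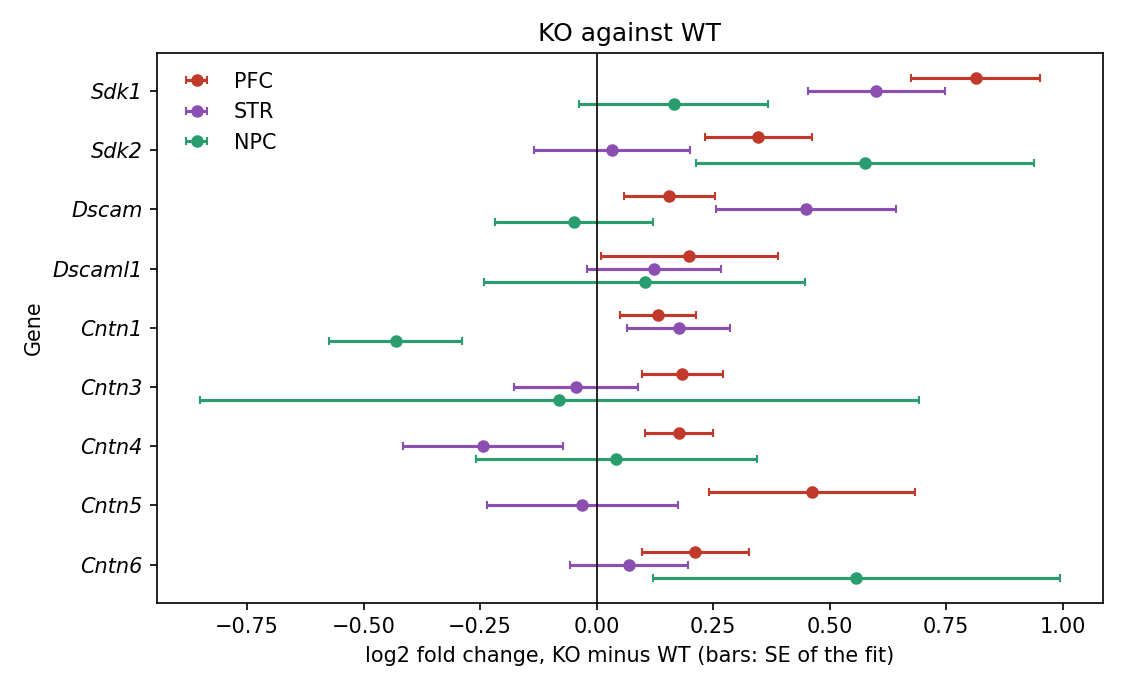
Log2 fold change of KO against WT for each member in PFC (red), STR (purple) and NPCs (green), with bars of 1 SE of the edgeR fit; *Cntn5* was not tested in NPCs. *Sdk1* stands at 0.81 in PFC and 0.60 in STR, and *Cntn1* at 0.13 in PFC and -0.43 in NPCs.

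A wider list of 60 partners and related adhesion genes was counted in the same way: Caspr, MAGI, L1-family, IgLON, nectin, Robo, netrin-receptor and phosphatase genes. In KO against WT edgeR's test called none of its genes in PFC (60 tested, 17 at an unadjusted p under 0.05 where 11.2% of all genes were, median log2 fold change 0.08 against -0.02 over all genes), STR (60 tested, 9 at that p where 8.7% of all genes were, median 0.10 against 0.002), NPCs (53 tested, 1 at that p, 3.03% of all genes) or ESCs (41 tested, 2 at that p, 1.13% of all genes). *Chl1*, an L1-family partner of contactins, stood at 0.37 (SE 0.09, adjusted p = 0.0987 by edgeR) in PFC and 0.39 (SE 0.12, adjusted p = 0.427) in STR. *Cntn2*, the contactin of myelinated axons, stood at -0.32 (SE 0.092, adjusted p = 0.165) in PFC and 0.01 in STR. *Cntnap2*, which binds it there, stood at 0.29 (adjusted p = 0.245) and 0.32 (adjusted p = 0.487). By edgeR, *Nrcam* stood at 0.19 in PFC (adjusted p = 0.412) and 0.06 in STR (adjusted p = 0.915). *Magi2* stood at 0.13 (adjusted p = 0.528) and 0.10 (adjusted p = 0.836), and *Ncam1* at 0.09 (adjusted p = 0.708) and 0.21 (adjusted p = 0.586). In NPCs *Chl1* stood at -0.83 (SE 0.616), *Nrcam* at 0.22, *Cntnap2* at 0.40, *Ncam1* at 0.05 and *Magi2* at -0.015. In ESCs the largest of these was *Nrcam*, at 0.99.

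Between PFC and STR in WT, 18 of the 60 were called higher in PFC and 11 lower, where 13% and 11.4% of all genes were. *Chl1*, with a log2 difference of 0.55 (adjusted p = 0.00101 by edgeR), and the scaffold gene *Magi2*, whose product binds Sidekicks, at 0.40 (adjusted p = 0.00279), were among the higher, and *Cntnap2* at -0.59 (adjusted p = 0.00275) among the lower. In KO samples 18 were higher and 12 lower, where 13.8% and 13.9% of all genes were. Between NPCs and ESCs in WT, 38 of 56 tested were called higher in NPCs and 7 lower, where 34.6% and 36.6% of all genes were. *Cntn2*, a contactin outside the 9, was lower in NPCs, by 4.21 on the log2 scale (-4.21, SE 0.396, adjusted p = 0.000471 by edgeR), while the 4 listed contactins that were tested were all called higher in WT.

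The genes most like *Sdk1* over the 12 brain samples, by Pearson's r of log2(CPM + 0.5) among 15677 genes, were *Fam185a* (r = 0.965), *Pcdh19* (r = 0.947) and *Sat2* (r = 0.899). Of the members, *Cntn1* came nearest (r = 0.505) and *Cntn4* was farthest (r = 0.064). Over all 22 samples *Armcx2* (r = 0.972), *Acp2* (r = 0.972) and *Fahd2a* (r = 0.971) led among 16161 genes, with *Cntn1* at 0.959 and *Dscam* at 0.953. Samples in these correlations share tissue and genotype, and over the 22 samples the gap between ESCs and the rest enters every value.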

How the data were processed

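RNA from 22 mouse samples was made into libraries with the Illumina TruSeq RNA kit. Per the labels' processing notes and the study's methods, the authors used CASAVA 1.7, aligned with STAR (genome mm10/GRCm38) and assigned reads to Ensembl release 75 genes with HTSeq. The authors deposited raw counts, 1 table per sample; HTSeq's summary lines (multimapped reads among them, 7.62% to 45.5% of the total) were left out of library sizes. Names, positions and exon lengths came from GENCODE M21 on GRCm38, which named 37693 of 39179 identifiers (99.709% of counts). CPM and RPKM were computed here. Groups and replicate numbers came from the sample titles.

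Groups were compared with edgeR 4.0.16 in R 4.3.3 (quasi-likelihood test, robust, TMM, expression filter, no block) over all genes, adjusted by Benjamini-Hochberg at 0.05. All 9 members were named in each comparison, and related genes where called between groups (in KO against WT, 6 set names). The members, lists and rules were chosen with earlier results of these data known. Replicates of a group differed beyond counting error (chi-square over degrees of freedom 1.83 to 37.3). Same-numbered samples deviated together in NPCs (r 0.536 to 0.719) and between PFC and STR (0.149 to 0.418), and not between genotypes in PFC (-0.032 to 0.063) or STR (-0.021 to 0.136). With 2 or 3 samples a group, their number limits precision. Alternatives were DESeq2 1.42.0, RLE factors, dropping the filter, a minimum of 10 counts in each sample, a log2 fold change beyond 1, a replicate block, both brain regions fitted together and each sample left out. The scripts were tested on simulated counts. The correlation used log2(CPM + 0.5) for genes with a mean of at least 1 CPM.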

Additional observations from a re-analysis of the deposited data

Results flagged for a closer look

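*Cntn1* leaned in opposite directions with genotype in PFC and NPCs: every KO sample was above every WT sample in PFC (log2 fold change 0.132) and below every WT sample in NPCs (-0.431). Neither difference passed edgeR's test over all genes. Groups that did not overlap were found for 17.1% of all genes in PFC and 8.27% in NPCs. A test of the difference between these effects, added after the values were seen, gave 0.58 on the log2 scale (SE 0.172, unadjusted p = 0.00535, adjusted p = 1 by edgeR's quasi-likelihood test over 16631 genes). In that test 0 genes were called, with 707 at an unadjusted p under 0.05, and no other tool was run on it. *Cntn1* was picked from the members by this same pattern, so nothing is read from its p. No group held enough samples for a test of single outlying samples.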

How the results depend on the processing

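Across alternatives the direction of every member's difference held except when single samples were left out. Leaving out a sample turned these log2 differences: in STR KO against WT *Sdk2* (-0.106 to 0.201), *Dscaml1* (-0.037 to 0.245), *Cntn3* (-0.176 to 0.056), *Cntn5* (-0.255 to 0.116) and *Cntn6* (-0.05 to 0.165), in NPCs *Sdk1* (-0.012 to 0.332), *Dscam* (-0.194 to 0.036), *Dscaml1* (-0.206 to 0.497), *Cntn3* (-0.548 to 0.429) and *Cntn4* (-0.205 to 0.238), and in ESCs *Sdk1* (-0.283 to 3.294) and *Dscaml1* (-0.167 to 0.532). Between PFC and STR it turned *Sdk1* (-0.185 to 0.013) and *Dscaml1* (-0.107 to 0.245) in WT and *Cntn5* (-0.268 to 0.12) in KO, between NPCs and ESCs *Phf8* in KO (-0.449 to 0.032), and for the interaction of genotype and region *Cntn1* (-0.146 to 0.08), *Dscaml1* (-0.034 to 0.318) and *Phf8* (-0.163 to 0.116). None of these differences passed the test.

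Counts of genes called moved more. In PFC 98 genes were called for KO against WT, 18 of them with a log2 fold change beyond 1 (0 members), 379 without the filter, 182 by DESeq2, 21 with both regions fitted together and 2 to 154 with a sample left out (0 to 1 members, no test of *Sdk1* being drawn from this). In STR it was 0, 27 without the filter, 53 by DESeq2, 8 with the replicate block, 13 with both regions together and 0 to 2 with a sample left out. In NPCs it was 1, 2 without the filter, 5 by DESeq2, 3 with the block and 0 with a sample left out. In ESCs it was 0, 3 by DESeq2 and 513 with the block, though the labels do not say that numbers pair ESC samples (r = 0.886, 2 pairs). Between PFC and STR in WT 3791 fell to 1292 with a log2 difference beyond 1, and members called rose from 3 to 5 without the filter or with the block (3 to 4 with a sample left out). The block raised the genes called as well, to 5405 of 15555. In KO 4301 fell to 1319 and members from 4 to 2 (3 to 4 with a sample left out). Requiring 10 counts in every sample left 2 members called between NPCs and ESCs in WT and 3 in KO, since it drops members low in ESCs. Without a sample they were 7 to 8 in each. For the interaction 1 gene was called, 2 without the filter, 19 by DESeq2 and 1 to 3 with a sample left out. Beside *Cntn5* and *Cntn6* between PFC and STR in WT, the block changed the call on 1 member, *Cntn3* between NPCs and ESCs in WT (adjusted p = 0.0576). Where no cause is given, it was not tested. Counts limit *Sdk1* in ESCs and *Cntn5* in NPCs.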
